A study of Mus musculus with 4 samples.

Results

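The 39 genes described here encode the machinery of mitosis, from the kinases that start it to the proteins that separate the daughter cells. They were picked by name from the 56793 rows of a deposited table of RNA abundance, and all 39 were found and tested among 16073 genes. The libraries came from cells sorted by flow cytometry as megakaryocytes from mouse bone marrow, 2 from old animals and 2 from young animals, both with the genotype given as Blc6 (spelled as in the labels). No treatment, exact age, sorting gate or number of animals per library is given in the sources used here, so p-values measure only the spread between these libraries, which may be technical. Abundance is in TPM, a length-corrected share of all transcripts scaled to the same total in each library. Such values do not hold the read totals, and the depth behind them is unknown.

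A dividing cell enters mitosis when cyclins A and B activate the kinase CDK1, builds a spindle that attaches to kinetochores, and waits at a checkpoint until the anaphase-promoting complex destroys cyclin B. A central spindle then forms between the separating chromosomes and directs a ring of actin and myosin that pinches the cell apart. Megakaryocytes, which give rise to platelets, repeat mitosis without completing this last step (endomitosis) and become polyploid, so entry genes and cytokinesis genes are given separately below. In mouse megakaryocytes, low levels of the cytokinesis factor ECT2 are known to go with the later rounds of endomitosis.

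Many genes of this kind carry a CHR element (TTTGAA, or less often the variant TTCGAA), bound by the LIN54 subunit of the MuvB complex, and CCAAT boxes, bound by NF-Y, close to their start. RefSeq promoter windows of build GRCm38.p6, from 250 bases before to 50 bases after a start, were found through the gene symbol for 34 of the 39 genes and gave 36 windows. TTTGAA, searched on both strands, was in 28 of the 36 windows (77.8%), against 17.9% of all 32851 windows. CCAAT, on both strands, was in 28 of 36 (77.8%), against 37.4% of all windows, and both motifs were in 24 of 36 (66.7%), against 6.95%. TTCGAA, which reads the same on both strands, was in 3 windows (8.33%), against 1.56% of all windows. None of the 3 motifs contains another, and a match is a description of letters and not a bound site. The 120 bases before the start are shown for 8 genes that stand for the steps described below, with both CHR forms and CCAAT boxes, or their reverse complements, in capitals.
Ccnb1, chr13:100786487-100786606, minus strand: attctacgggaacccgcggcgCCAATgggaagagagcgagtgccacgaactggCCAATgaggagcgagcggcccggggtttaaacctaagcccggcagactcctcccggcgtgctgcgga
Cdk1, chr10:69352913-69353032, minus strand: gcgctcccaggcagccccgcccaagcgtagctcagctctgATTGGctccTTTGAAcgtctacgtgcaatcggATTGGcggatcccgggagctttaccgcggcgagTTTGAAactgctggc
Mki67, chr7:135716380-135716499, minus strand: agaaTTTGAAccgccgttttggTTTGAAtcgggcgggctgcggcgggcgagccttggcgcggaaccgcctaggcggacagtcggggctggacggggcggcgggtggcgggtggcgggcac
Cdc20, chr4:118437344-118437463, minus strand: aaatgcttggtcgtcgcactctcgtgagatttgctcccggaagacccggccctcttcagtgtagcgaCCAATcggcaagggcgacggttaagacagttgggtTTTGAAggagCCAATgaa
Ube2c, chr2:164769809-164769928, plus strand: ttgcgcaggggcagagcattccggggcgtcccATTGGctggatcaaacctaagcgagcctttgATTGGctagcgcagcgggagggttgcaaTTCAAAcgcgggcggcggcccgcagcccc
Kif11, chr19:37376262-37376381, plus strand: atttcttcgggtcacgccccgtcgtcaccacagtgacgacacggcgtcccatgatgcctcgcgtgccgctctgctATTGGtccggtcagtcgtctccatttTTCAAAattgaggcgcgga
Kif22, chr7:127042421-127042540, minus strand: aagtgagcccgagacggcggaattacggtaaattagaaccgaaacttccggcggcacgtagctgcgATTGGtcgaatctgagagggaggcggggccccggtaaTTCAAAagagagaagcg
Ect2, chr3:27153879-27153998, minus strand: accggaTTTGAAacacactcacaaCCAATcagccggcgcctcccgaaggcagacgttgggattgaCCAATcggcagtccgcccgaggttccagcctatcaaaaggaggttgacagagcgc
Of these stretches, that of Ccnb1 held 2 CCAAT boxes and neither CHR form, while that of Mki67 held 2 copies of TTTGAA and no CCAAT. The other 6 held both motifs.

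The mitosis genes were lower in old than in young libraries across all steps, by 7.47% to 38.1% of the young mean, with a median of 26.1%. Summed over the 39 genes, old libraries held 2943 and 2810 TPM, against 3872 and 3962 TPM in young libraries. Both old libraries lay below both young libraries for 37 of the 39 genes, where 46.1% of all tested genes did so, and for Kif15 and Kif23 the groups overlapped. In the limma comparison (adjusted p under 0.05), 31 of 39 genes passed as lower in old, against 14.7% of all tested genes (19.9% in either direction). None passed as higher, against 5.2% of all tested genes. None was higher with an unadjusted limma p under 0.05 either, against 11.3% of all tested genes. The median log2 change of the 39 genes was -0.43, beside -0.10 for all tested genes.

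The count of 31 depended on the libraries, the scaling, the filter and the variance model. It was again 31 with 0.1 or 5 added to TPM in place of 1. With a minimum mean of 5 TPM it was 33, as Mki67 and Bub1 passed too, where 2727 of 11416 tested genes were lower. With quantile normalization it was 27, where 1265 of 16073 tested genes were lower. Few or none of the 39 passed without young replicate 1 or 2, and fewer than 31 without old replicate 1 or 2. The median log2 change of the 39 was -0.45 and -0.40 without young replicates 1 and 2, beside -0.13 and -0.07 for all tested genes. Without old replicates 1 and 2 it was -0.47 and -0.43, beside -0.14 and -0.06. The count was 3 without the filter, where 59 of all 33589 tested genes were lower. It was 4 without the variance trend, where 263 of all 16073 tested genes were lower. The immunoglobulin share of TPM was 13.3% and 13.1% in old libraries, against 1.03% and 0.896% in young libraries, and all genes share 1 fixed total. With these genes removed and the rest rescaled, 15 of 39 genes (38.5%) were lower and 0 were higher, where 3.27% of all tested genes were lower and 8.2% higher. The median log2 change was then -0.24, beside 0.07 for all tested genes. Under median-ratio scaling 23 of 39 genes were lower and 0 higher, against 5.59% and 5.92% of all tested genes.

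**Figure D1:**
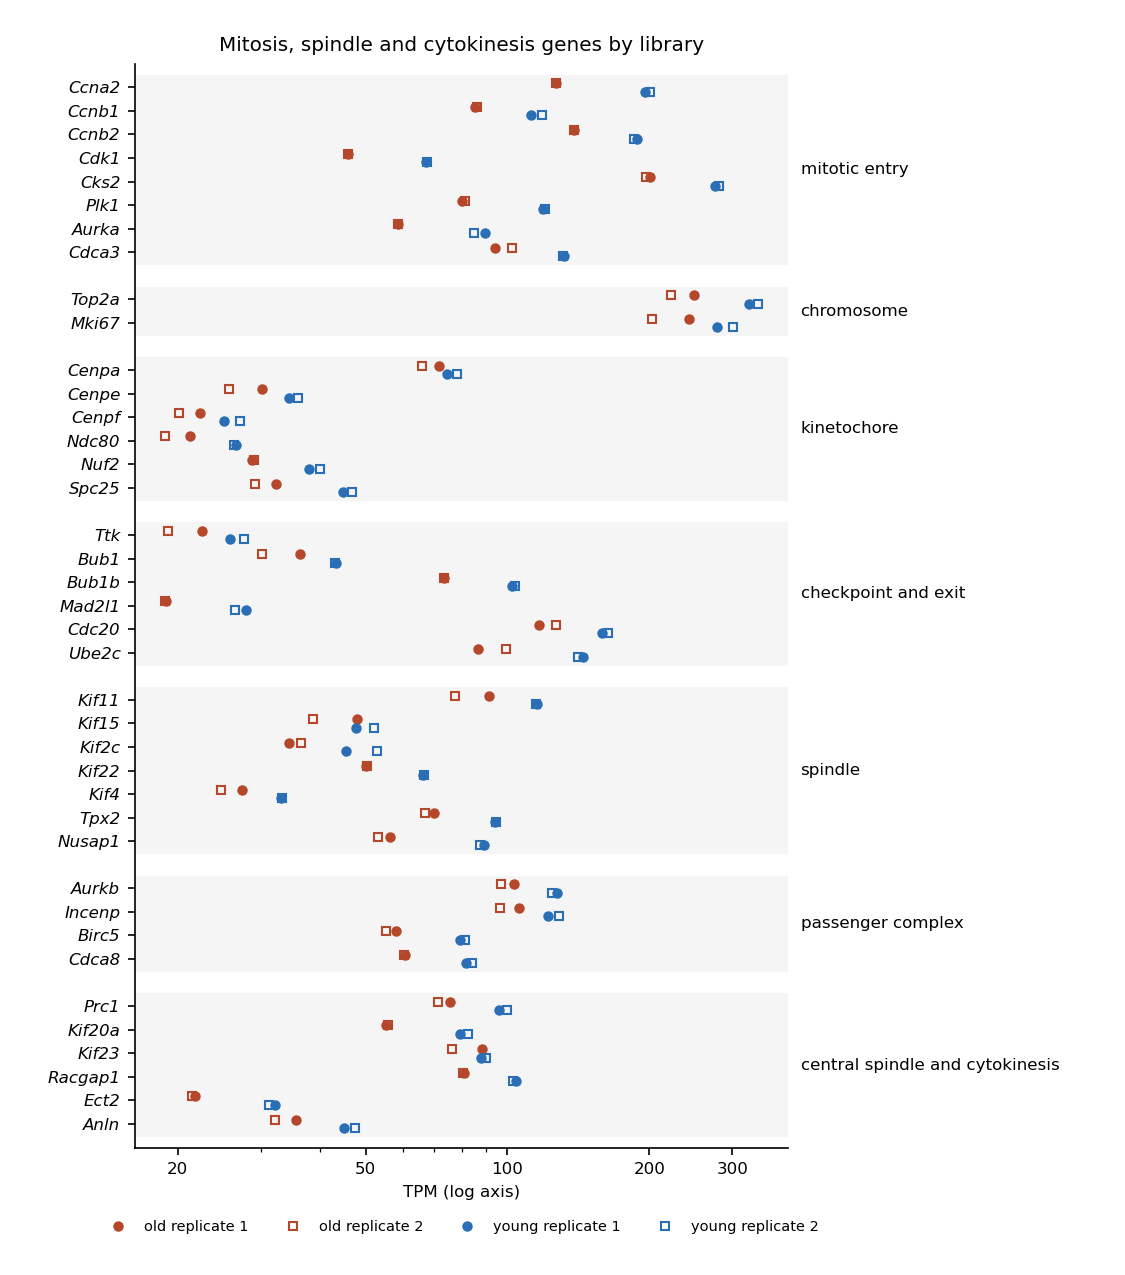
TPM (log axis) of the 39 genes in each library, grouped by role, with old libraries in red above young libraries in blue and circles and squares for replicates 1 and 2. The red points lie left of the blue ones for all genes but Kif15 and Kif23, whose groups overlap.

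All 8 genes of mitotic entry fell in old libraries, with log2 changes between -0.64 and -0.42. Ccna2, encoding cyclin A2, which acts in S phase and at the start of mitosis, was at 127 and 127 TPM in old libraries, against 196 and 201 TPM in young libraries. Its log2 change was -0.64 (SE 0.05, limma adjusted p = 0.00851), and it was 35.9% lower. Cdk1, the kinase that the mitotic cyclins activate, was at 45.8 and 45.9 TPM in old libraries, against 67.1 and 67.5 TPM in young libraries (log2 change -0.54, SE 0.06, adjusted p = 0.0130). For both genes the replicates differed by little and the groups lay far apart. Ccnb1, encoding cyclin B1, was at 85.4 and 86.1 TPM in old libraries, against 112 and 118 TPM in young libraries. Ccnb2, its close relative, was at 138 and 138 TPM in old libraries, against 188 and 186 TPM in young libraries. The 2 B-type cyclins fell by similar amounts, 0.42 and 0.43 on the log2 scale, and the ratio of Ccnb2 to Ccnb1 overlapped between the groups, at 1.62 and 1.60 in old and 1.68 and 1.57 in young libraries.

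The mitotic kinases and their helpers followed the same order. Plk1, which drives entry, spindle assembly and cytokinesis, was at 80.2 and 81.2 TPM in old libraries, against 119 and 120.1 TPM in young libraries (log2 change -0.56, SE 0.05, adjusted p = 0.0110). Aurka, the Aurora kinase of centrosomes, was at 58.5 and 58.7 TPM in old libraries, against 89.7 and 84.8 TPM in young libraries (log2 change -0.57, SE 0.06, adjusted p = 0.0130). Cks2, a small subunit that docks on cyclin-dependent kinases, averaged 199 ± 3.14 TPM in old and 278 ± 4.32 TPM in young libraries (SD, n = 2 each). Cdca3, which aids entry by promoting removal of the CDK1 inhibitor WEE1, averaged 98.1 ± 5.48 TPM in old and 132 ± 0.436 TPM in young libraries (SD, n = 2 each). With immunoglobulin genes removed 6 of the 8 were still lower, and Ccnb1 (adjusted p = 0.0599) and Cdca3 (adjusted p = 0.0699) did not pass.

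Of the 2 chromosome genes, only Top2a passed. Top2a encodes the topoisomerase that untangles sister chromatids and was the most abundant of the 39. It was at 248 and 222 TPM in old libraries, against 325 and 339.6 TPM in young libraries, with a log2 change of -0.50 (SE 0.07, adjusted p = 0.0221), and with immunoglobulin genes removed its adjusted p was 0.0507. Mki67, which coats mitotic chromosomes and encodes the Ki-67 proliferation antigen, was at 242 and 202 TPM in old libraries, against 278 and 301 TPM in young libraries. Its groups did not overlap, but the old replicates lay far apart and the adjusted p was 0.0591 (log2 change -0.38, SE 0.10).

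Among the kinetochore genes, the 3 subunits of the microtubule-binding NDC80 complex fell and the 3 centromere proteins did not pass. Spc25 was at 32.4 and 29.2 TPM in old libraries, against 44.7 and 46.8 TPM in young libraries (log2 change -0.56, SE 0.08, adjusted p = 0.0203). Nuf2 averaged 28.9 ± 0.218 TPM in old and 38.9 ± 1.46 TPM in young libraries (SD, n = 2 each, adjusted p = 0.0244), and Ndc80 was at 21.2 and 18.8 TPM in old libraries, against 26.5 and 26.3 TPM in young libraries (adjusted p = 0.0414). The fourth subunit, Spc24, also fell, to 45.8 and 51.0 TPM in old libraries, against 77.2 and 73.5 TPM in young libraries (adjusted p = 0.0162). Cenpa, the histone H3 variant that marks centromeres, was at 71.5 and 65.8 TPM in old libraries, against 74.4 and 78.2 TPM in young libraries. Its log2 change was -0.15 (SE 0.07, adjusted p = 0.181) as deposited and 0.04 with immunoglobulin genes removed. With immunoglobulin genes removed Spc25 was still lower (adjusted p = 0.0414), while Nuf2 (adjusted p = 0.0860) and Ndc80 (adjusted p = 0.178) did not pass. Cenpe, a kinesin that moves chromosomes to the spindle equator, had a log2 change of -0.33 (adjusted p = 0.0719), and Cenpf, a large kinetochore protein, one of -0.29 (adjusted p = 0.0782).

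Of the 6 checkpoint and exit genes, 4 fell. Ube2c, the enzyme that starts ubiquitin chains for the anaphase-promoting complex, was at 86.7 and 99.1 TPM in old libraries, against 144 and 141 TPM in young libraries (log2 change -0.62, SE 0.08, adjusted p = 0.0177). Cdc20, the activator of that complex, was at 117 and 127 TPM in old libraries, against 158 and 163 TPM in young libraries (log2 change -0.40, SE 0.07, adjusted p = 0.0247). Of the genes that hold the complex in check, Bub1b, encoding BUBR1, averaged 73.4 ± 0.0893 TPM in old and 103 ± 0.994 TPM in young libraries (SD, n = 2 each, adjusted p = 0.0143). Mad2l1, encoding MAD2, had the lowest level of the 39 genes, at 18.8 and 18.8 TPM in old libraries, against 28.0 and 26.5 TPM in young libraries (adjusted p = 0.0209). The kinases Bub1 and Ttk, which act at the top of the checkpoint, did not pass, with log2 changes of -0.37 (adjusted p = 0.0601) and -0.35 (adjusted p = 0.0710). Of the 6, Ube2c and Bub1b were lower with immunoglobulin genes removed.

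Spindle motors and assembly factors contained both the most and one of the least changed of the 39 genes. Nusap1, which bundles spindle microtubules, had the largest change of the 39. It was at 56.2 and 53.2 TPM in old libraries, against 89.3 and 87.4 TPM in young libraries, a log2 change of -0.68 (SE 0.06, adjusted p = 0.0102). Tpx2, the activator of Aurora A on the spindle, was at 69.7 and 66.9 TPM in old libraries, against 94.3 and 94.5 TPM in young libraries (adjusted p = 0.0168). Kif11, the motor that pushes spindle poles apart, was at 91.2 and 77.6 TPM in old libraries, against 116 and 115 TPM in young libraries (adjusted p = 0.0334). Kif15, which can stand in for Kif11, was at 48.0 and 38.6 TPM in old libraries, against 47.8 and 52.2 TPM in young libraries, and its groups overlapped (log2 change -0.21, SE 0.12, adjusted p = 0.260). Kif2c, which takes microtubules apart at kinetochores, Kif22, a motor on chromosome arms, and Kif4, a motor of chromosomes and central spindle, passed with log2 changes of -0.46, -0.40 and -0.34. Of the 7, Nusap1 and Tpx2 were lower with immunoglobulin genes removed.

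The 4 subunits of the chromosomal passenger complex, which corrects attachments and then moves to the central spindle, all fell. Aurkb, its kinase, was at 103 and 96.9 TPM in old libraries, against 127 and 124 TPM in young libraries (log2 change -0.33, SE 0.06, adjusted p = 0.0285). Incenp, its scaffold, was at 106 and 96.3 TPM in old libraries, against 122 and 128 TPM in young libraries (log2 change -0.31, SE 0.07, adjusted p = 0.0450). Birc5, encoding survivin, averaged 56.6 ± 2.02 TPM in old and 80.4 ± 1.24 TPM in young libraries (SD, n = 2 each, adjusted p = 0.0161). Cdca8, encoding borealin, averaged 60.5 ± 0.195 TPM in old and 82.9 ± 1.63 TPM in young libraries (SD, n = 2 each, adjusted p = 0.0172). With immunoglobulin genes removed Birc5 and Cdca8 were still lower, while Aurkb had an adjusted p of 0.187 and Incenp one of 0.308.

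**Figure D2:**
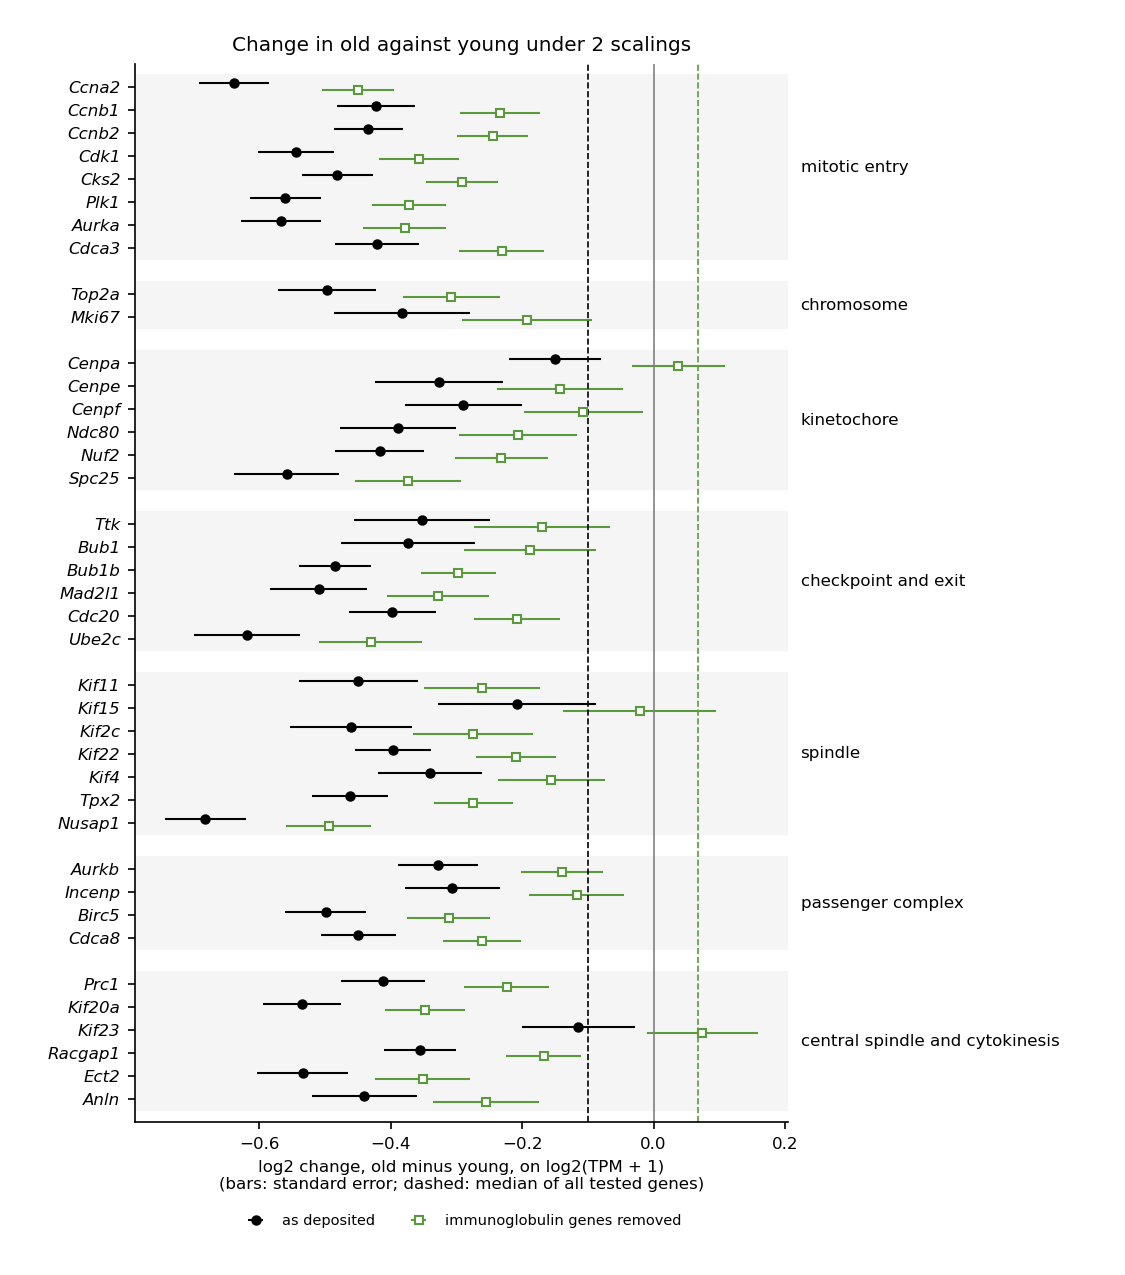
Log2 change (old minus young) of each of the 39 genes with its standard error, as deposited (black circles) and with immunoglobulin genes removed (green squares), with dashed lines at the median of all tested genes. All 39 black points lie below 0, and 37 of the green squares do, the exceptions being Cenpa and Kif23.

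Of the 6 genes of the central spindle and cytokinesis, 5 fell. Ect2, the exchange factor that activates RhoA at the cell equator, was at 21.7 and 21.4 TPM in old libraries, against 32.1 and 31.2 TPM in young libraries. Its log2 change was -0.53 (SE 0.07, adjusted p = 0.0174), and with immunoglobulin genes removed it was -0.35 (adjusted p = 0.0378). Under that scaling 2 of the 6 genes, Ect2 and Kif20a, were lower, and Prc1 (adjusted p = 0.0768), Anln (adjusted p = 0.0934) and Racgap1 (adjusted p = 0.110) did not pass. Kif20a, a motor that carries PLK1 and the passenger complex to the central spindle, was at 55.1 and 55.7 TPM in old libraries, against 79.1 and 82.3 TPM in young libraries (log2 change -0.53, SE 0.06, adjusted p = 0.0138). The log2 change of Cdk1, for comparison, was -0.54. Prc1, which crosslinks the microtubules of the central spindle, averaged 73.4 ± 3.14 TPM in old and 97.9 ± 2.76 TPM in young libraries (SD, n = 2 each, adjusted p = 0.0227). Anln, encoding anillin, the scaffold of the contractile ring, averaged 33.8 ± 2.44 TPM in old and 46.2 ± 1.74 TPM in young libraries (SD, n = 2 each, adjusted p = 0.0276).

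Racgap1 and Kif23 encode the 2 partners of centralspindlin, the complex that recruits ECT2. Racgap1 was at 80.7 and 80.4 TPM in old libraries, against 104 and 103 TPM in young libraries, a log2 change of -0.36 (SE 0.05, adjusted p = 0.0227). Kif23 was at 88.2 and 76.2 TPM in old libraries, against 87.9 and 89.9 TPM in young libraries, and old replicate 1 lay between the young replicates. Its log2 change of -0.11 (SE 0.09, adjusted p = 0.374) was the smallest of the 39 and became 0.07 with immunoglobulin genes removed. The ratio of Kif23 to Racgap1 was 1.09 and 0.948 in old libraries, against 0.844 and 0.876 in young libraries.

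To set cytokinesis against entry independently of the scaling between libraries, the mean log2(TPM + 1) of the 8 entry genes was subtracted from that of the 6 cytokinesis genes within each library. The difference was -0.80 and -0.89 in old libraries, against -0.97 and -0.95 in young libraries. The groups did not overlap, and the old mean was 0.11 above the young mean, where the pooled SD between replicates was 0.0459. No p-value is given for this mean over chosen genes, and an exact permutation test of 2 libraries against 2 cannot go below p = 0.333. The value was 0.053 with Kif23 left out of the cytokinesis genes, 0.0649 without old replicate 1 and 0.155 without old replicate 2. Relative to the entry mean, Racgap1 and Prc1 were higher in both old than in both young libraries, Kif20a was lower (difference of the means -0.026), and Ect2 and Anln overlapped. The ratio of Ect2 to Cdk1 was 0.474 and 0.466 in old libraries, against 0.479 and 0.463 in young libraries.

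**Figure D3:**
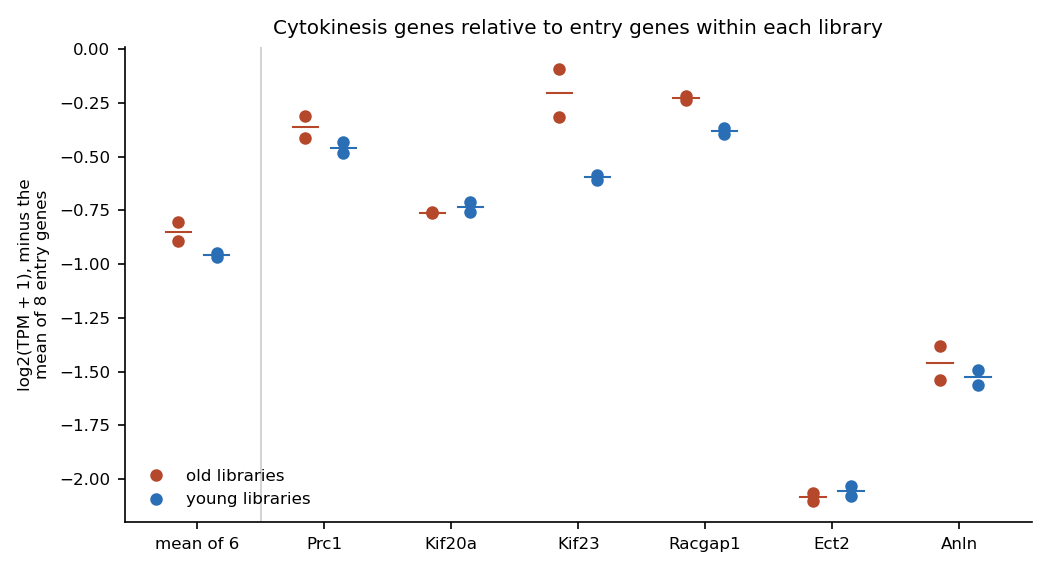
Level of each cytokinesis gene in log2(TPM + 1) minus the mean of the 8 entry genes in the same library, with old libraries (red) left of young libraries (blue) and bars at the group means. Kif23 shows the widest gap between groups (old mean -0.20, young mean -0.60), and the points of Ect2 overlap.

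Old replicate 2 was below old replicate 1 for 27 of the 39 genes, for all 8 that did not pass and for 19 of the 31 that passed. The median log2 difference between these replicates was -0.22 for the 8 genes and -0.006 for the 31. Genes whose replicates lie apart are less likely to pass, so this split by the test is a description only. Among the 39 genes this difference was more negative for longer transcripts, with Pearson's r of -0.48 with log2 length and Spearman's rho of -0.46. Over 11775 tested genes with a length, r was -0.35. The young replicates went slightly the other way, with r of 0.20 over the 39 genes. These correlations run across genes measured in the same libraries. Lengths are of GENCODE M21 principal transcripts, or of the longest protein-coding transcript of a gene where none is marked as principal. The cytokinesis genes had a median length of 3536 nt, the entry genes one of 2088 nt, and the part of length in the difference between them was not tested.

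**Figure D4:**
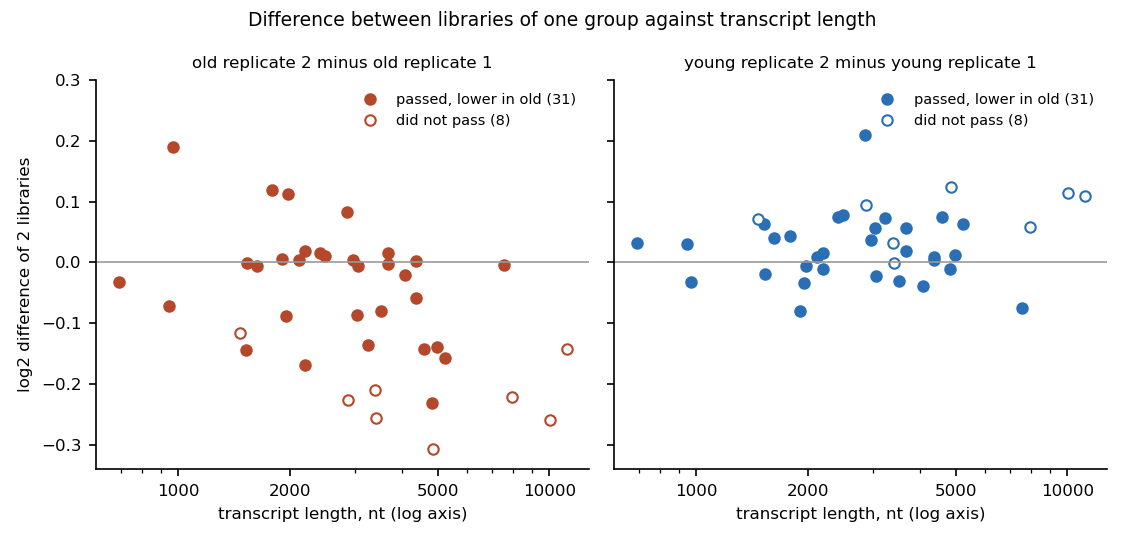
Log2 difference between the replicates of the old group (left) and of the young group (right) against transcript length (log axis) for the 39 genes, with open circles for the 8 that did not pass. All 8 open circles lie below 0 in the old panel, and long transcripts sit lower there.

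Other genes of the same processes were taken from lists by function, and the genes named from each are the changed ones with the smallest adjusted p. As deposited, 14.7% of all tested genes were lower and 5.2% higher. With immunoglobulin genes removed, 3.27% were lower and 8.2% higher. Of 15 further entry regulators 9 were lower and 0 higher, with a median log2 change of -0.34, and 3 were lower with immunoglobulin genes removed. They included Ccnf (log2 change -0.61, adjusted p = 0.0145), the F-box protein cyclin F, the CDK1-activating phosphatase Cdc25b (-0.43, adjusted p = 0.0176) and Cks1b (-0.56, adjusted p = 0.0185), the relative of Cks2. Of 29 further kinetochore genes 14 were lower, Spc24, Mis12 and Bub3 with the smallest p, and of 18 condensin and cohesin genes 10 were lower, among them the condensin subunit Ncaph (-0.50), the cohesin subunit Rad21 (-0.38) and its protector Cdca5 (-0.46). Of 22 further spindle genes 10 were lower, led by Dlgap5, Haus8 and Ckap2l. The anaphase-promoting complex had 4 of 16 genes lower, including Ube2s (-0.55), which lengthens its ubiquitin chains, the subunit Anapc11 (-0.58) and its late activator Fzr1 (-0.37). With immunoglobulin genes removed, 4 of the 29 kinetochore genes, 2 of the 18 condensin and cohesin genes, 0 of the 22 spindle genes and 2 of the 16 genes of the anaphase-promoting complex were lower. None of these genes passed as higher under either scaling, and the deposited medians of the last 4 lists lay between -0.36 and -0.24.

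Of 28 genes of the contractile ring and abscission 9 were lower, with a median log2 change of -0.25. Those with the smallest p were Myl12a, a myosin light chain (-0.35, adjusted p = 0.0260), the formin Diaph3 (-0.41, adjusted p = 0.0262) and the microtubule end protein Mapre1 (-0.34, adjusted p = 0.0282). With immunoglobulin genes removed 0 of the 28 were lower and 1 was higher, where 3.27% and 8.2% of all tested genes were. Of 20 regulators that act through the CHR element or on the same genes 8 were lower, including Rbbp4 (-0.53, adjusted p = 0.0134), a MuvB subunit that other complexes share, E2f4 (-0.49, adjusted p = 0.0203) and Rbl1 (-0.38, adjusted p = 0.0253). Mybl2 passed with a log2 change of -0.34 (adjusted p = 0.0338), and Foxm1 had one of -0.26 with an adjusted p of 0.148. Both encode activators of mitotic genes and were named after their values were seen. Of the 20, 2 were lower with immunoglobulin genes removed. In the DNA replication list 25 of 32 genes were lower and 0 higher, with a median of -0.48, beside 31 of 39 and -0.43 for the mitosis genes. With immunoglobulin genes removed 15 of 32 replication genes and 15 of 39 mitosis genes were lower.

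Of 20 genes tied to megakaryocyte endomitosis 7 were lower and 1 higher, with a median log2 change of -0.32. The counts were 6 lower and 2 higher with immunoglobulin genes removed. Of all tested genes 14.7% were lower and 5.2% higher as deposited, and 3.27% and 8.2% with immunoglobulin genes removed. The counts of higher genes lay near these shares. Ccnd3, the D-type cyclin linked to polyploidy in mouse megakaryocytes, was at 210 and 207 TPM in old libraries, against 323 and 326 TPM in young libraries (log2 change -0.64, SE 0.05, adjusted p = 0.00844). Ccne1, encoding cyclin E1, which drives re-entry into S phase, was at 28.4 and 28.2 TPM in old libraries, against 49.0 and 51.8 TPM in young libraries (log2 change -0.81, SE 0.07, adjusted p = 0.00850). Gata1, a transcription factor of megakaryocytes and erythroblasts, had a log2 change of -0.73 (SE 0.07, adjusted p = 0.0102). The single gene that rose, named after its value was seen, was Ccnd2, another D-type cyclin, at 46.7 and 47.0 TPM in old libraries, against 31.0 and 34.1 TPM in young libraries (log2 change 0.51, SE 0.07, adjusted p = 0.0209).

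Markers of erythroid cells and of B cell precursors were lower in old libraries, as the mitosis genes were. In these bulk libraries, fewer cells of a type and less RNA per cell cannot be told apart. For all marker counts, 14.7% of all tested genes were lower and 5.2% higher as deposited. With immunoglobulin genes removed these shares were 3.27% and 8.2%. All 17 erythroid markers tested were lower (15 with immunoglobulin genes removed), with a median log2 change of -1.12 and a sum of 3356 and 3807 TPM in old libraries, against 10537 and 10524 TPM in young libraries. Of 12 B cell precursor markers 11 were lower under both scalings (median -1.06 as deposited), with a sum of 250.1 and 238 TPM in old libraries, against 470 and 421 TPM in young libraries. The 10 neutrophil precursor markers summed to 27544 and 26480 TPM in old libraries, against 33520 and 33926 TPM in young libraries, and 3 were lower (median -0.17). Of these 10, 1 was lower and 1 higher with immunoglobulin genes removed (median 0.02). The 11 stem and progenitor markers went the other way in part, with 1 lower and 5 higher as deposited (median 0.32) and 1 lower and 7 higher with immunoglobulin genes removed. Kit, the stem cell factor receptor, was among those that rose and was named after its value was seen, with a log2 change of 0.32 (adjusted p = 0.0461). Megakaryocyte markers, Pf4 among them, summed to 977 and 1451 TPM in old libraries, against 1764 and 2321 TPM in young libraries. Of 14 tested, 3 were lower (median -0.80). With immunoglobulin genes removed 0 of 14 passed, though the median was still -0.62.

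Markers of other marrow cells were also present. The 9 mature neutrophil markers summed to 97813 and 98550 TPM in old libraries, against 113603 and 107179 TPM in young libraries, many times the megakaryocyte sum. Of the 9, 0 were lower and 2 higher (median log2 change 0.12), or 0 lower and 5 higher with immunoglobulin genes removed (median 0.31). All 9 plasma cell markers rose, and 8 were higher with immunoglobulin genes, Igkc among them, removed. Their sum was 40608 and 41058 TPM in old libraries, against 2851 and 2622 TPM in young libraries. Most of it was Igkc, at 39428 and 39985 TPM in old libraries, against 2526 and 2325 TPM in young libraries. Of 13 monocyte and macrophage markers 9 were lower and 1 higher, or 4 lower and 1 higher with immunoglobulin genes removed. Of 6 basophil and mast cell markers 2 were lower and 1 higher, or 0 lower and 2 higher with immunoglobulin genes removed. Of 9 T and NK cell markers 1 was lower under both scalings. No marker of these lists that the table holds was at 0 in any library. The part of any of these cells in the levels of the mitosis genes was not tested, and how much of them came from megakaryocytes is not known.

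**Figure D5:**
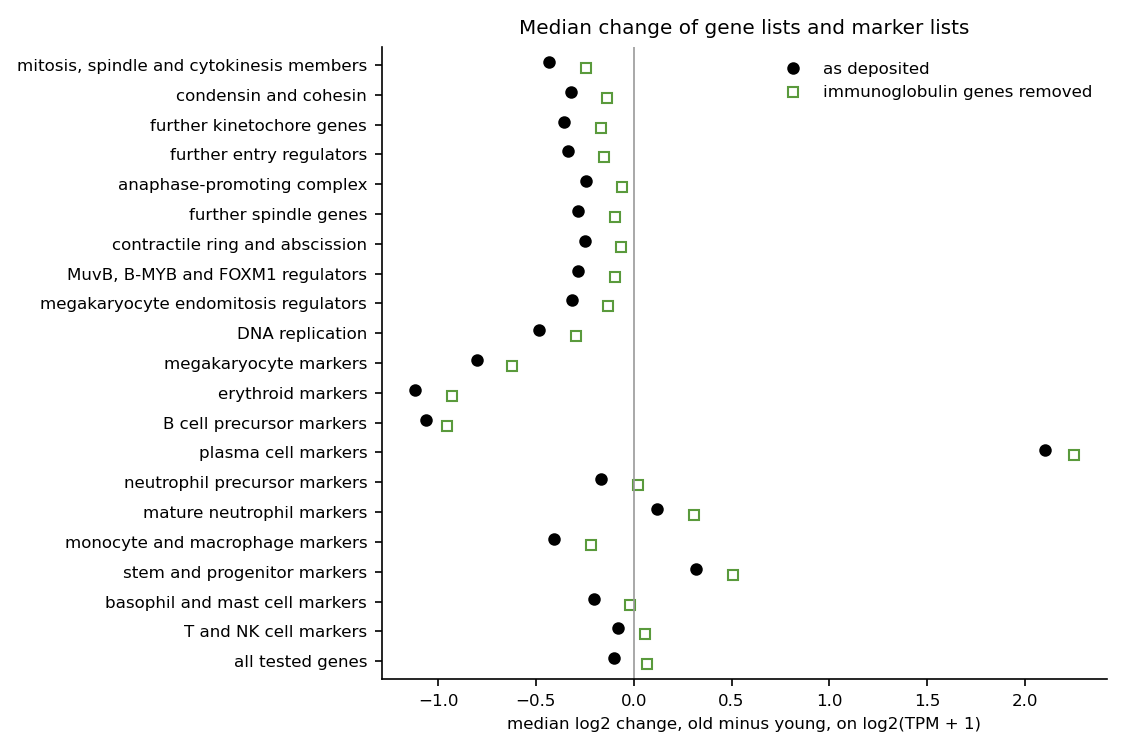
Median log2 change (old minus young) of the 39 genes, of the other gene lists, of the marker lists and of all tested genes, as deposited (black circles) and with immunoglobulin genes removed (green squares). The 39 genes lie at -0.43 as deposited, between the erythroid markers at -1.12 and all tested genes at -0.10.

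In the authors' deposited table of 1255 changed genes, 21 of the 39 genes appeared, all as lower in old, where 4.51% of the genes tested here were listed as lower and 3.16% as higher. All 21 were also among the 31 that passed here. In the authors' deposited table the log2 fold change was -0.50 (SE 0.12) for Ccna2, -0.52 (SE 0.14) for Nusap1, -0.42 (SE 0.12) for Cdk1 and -0.28 (SE 0.11) for Cdc20, nearer to 0 than the changes in TPM. From the cytokinesis genes the authors' deposited table listed Kif20a, Anln and Prc1, and not Ect2, Racgap1 or Kif23. The authors' deposited enrichment table for genes lower in old listed 67 of those genes under mitotic cell cycle process (log10 q of -19.0). Of these 67, 20 were from the 39. None of the 39 was listed as higher, so no term of the authors' deposited table for genes higher in old could hold them.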

How the data were processed

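The 4 libraries were prepared from polyadenylated RNA by a stranded method, per the labels' protocols. STAR, TopHat, Trim Galore and DESeq2, and the builds GRCm39 and mm9, appear without roles in the submitters' processing notes. The authors deposited TPM values for 56793 gene rows, per the file headers. Their table of changed genes gives, per the file headers, log2 fold changes, p-values and a mean normalized signal, and the authors' enrichment tables give log10 p and q values. Its 4 library columns equal the deposited TPM values.

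The 16073 genes whose mean over the libraries reached 1 TPM were compared on log2(TPM + 1), which understates the change of low genes, with limma 3.58.1 in R 4.3.3: moderated variances with a trend, two-sided, Benjamini-Hochberg adjustment over all tested genes, threshold 0.05. The fit was tested on simulated data. The genes, roles, lists and tests were chosen with earlier results of these data known. The genes named are all 39, Pf4, and from each other pathway list up to 3 changed genes with the smallest adjusted p; others are marked where named. Figures used matplotlib 3.10.9.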

Additional observations from a re-analysis of the deposited data

How the results depend on the processing

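All 39 genes had a negative log2 change under each alternative run, except Cenpa (0.0378) and Kif23 (0.0740) with immunoglobulin genes removed and Cenpa (0.0282) and Kif23 (0.0644) with haemoglobin and mitochondrial genes removed as well. The number lower in old was 31 as deposited, 15 and 17 after these removals, 3 with no filter on low values (33589 genes tested) and 4 with no variance trend, and 0 to 26 with 1 library left out. None was higher under any of these. The count of all changed genes was 3204 as deposited (73.9% lower), 1849 under median-ratio scaling (48.6% lower), 1819 (28.5% lower) and 1783 (31.1% lower) after the removals, 130 with no filter, 572 with no variance trend and 359 to 2325 with 1 library left out. The median log2 change of the 39 genes was -0.41 with a pseudocount of 5, -0.37 under median-ratio scaling, -0.35 with quantile normalization, -0.24 and -0.25 after the removals and -0.47 to -0.40 with 1 library left out. With 1 library left out, the lone library of its group is assumed to vary like the other group. The old minus young difference in the cytokinesis mean minus the entry mean, 0.11 as deposited, was 0.0649 to 0.155 with 1 library left out. It was 0.0530 with Kif23 left out, an alternative chosen after seeing the data. The replicate block gave 1252 changed genes and 21 of the 39 lower. Across tested genes, the deviations of old replicate 1 and young replicate 1 from their group means had r = -0.15. With 2 libraries per group, this cannot show whether same-numbered libraries were paired. A crossed replicate block, chosen after seeing the data, gave 4649 changed genes and 36 of the 39 lower. Depth is unknown, so no limit from counting can be given.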

Other observations

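Ratios between pairs of the 39 genes, within a step or across steps, which do not depend on the scaling between libraries, were read for pairs chosen after their values were seen, so they are descriptions. Aurkb to Aurka, the passenger kinase to the centrosomal one, was 1.76 and 1.65 in old libraries, against 1.42 and 1.46 in young libraries. Cenpa to Cdk1 was 1.56 and 1.43 in old libraries, against 1.11 and 1.16 in young libraries. Ccna2 to Cdk1 was 2.77 and 2.77 in old libraries, against 2.91 and 2.97 in young libraries, while Ccnb1 to Cdk1 was 1.86 and 1.88 in old libraries, against 1.67 and 1.75 in young libraries. Birc5 to Aurkb, within the passenger complex, was 0.563 and 0.569 in old libraries, against 0.625 and 0.654 in young libraries, whereas Incenp to Aurkb overlapped, at 1.03 and 0.994 in old and 0.959 and 1.03 in young libraries. Nuf2 to Ndc80 overlapped as well, at 1.36 and 1.55 in old and 1.43 and 1.52 in young libraries. A difference in such a ratio shows unequal change of the 2 genes and not that either stayed the same.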
